A study of Mus musculus with 13 samples.

Results

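The genes described here are 38 genes of glucose uptake, glycolysis, lactate handling and the response to low oxygen, taken from a list of gene symbols. All 38 were among the 32793 gene symbols measured by RNA-seq in each of 13 libraries from mouse embryos. The libraries came from whole E10.5 foreguts (3 control and 3 mutant) and from E11.5 tracheas (3 control and 4 mutant), and the study asked which genes respond when the repressor form of the Hedgehog effector Gli3 is in excess. Every embryo carried the Gli3TFlag/+ transgene, which encodes a truncated, tagged Gli3 repressor that is silent until Cre acts on it. Controls had no Cre, and mutants were Foxg1Cre;Gli3TFlag/+, in which Cre recombines in both the mesoderm and the endoderm of the foregut. Controls were therefore not free of the transgene, and no Foxg1Cre group without it was analysed here. The labels name the strain C57BL/6, whereas the study's methods describe an outbred background. The study states 3 replicates from independent dissections, and all 4 mutant tracheas were used here.

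Cells import glucose through Slc2a transporters and split it to pyruvate by glycolysis. Pyruvate is then burned in mitochondria after the pyruvate dehydrogenase complex, or reduced to lactate and exported. When oxygen is low, the prolyl hydroxylases of the Egln family no longer mark Hif1a protein for destruction, and Hif1a with its partner Arnt binds short hypoxia response elements near many of the genes described here. Early embryos are known to rely strongly on glycolysis, and pyruvate dehydrogenase kinases (Pdk) hold pyruvate out of mitochondria.

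Total counts per library were about 9646700 to 17988500, lowest in mutant trachea replicate 4. *Gli3* itself was at 251 to 284 CPM (counts scaled to library size, with TMM factors) in the control foreguts and 323 to 352 CPM in the mutant foreguts, and at 192 to 266 CPM in the control and 376 to 437 CPM in the mutant tracheas. The groups did not overlap at either stage, which goes with the labels. Markers of epithelium and mesenchyme were present in every library, as the labelled tissues imply, and other cell types were present too. Globin and other red cell markers summed to between 5549 and 91145 TPM (a unit that corrects for library size and transcript length). Heart muscle markers summed to 78.0 to 94.4 TPM in control and 158 to 2184 TPM in mutant foreguts, and to 86.6 to 669 TPM in control and 604 to 5256 TPM in mutant tracheas. Neuron markers reached 629 TPM in mutant foregut replicate 3. By *Xist*, all 3 control foreguts were male and 2 of the 3 mutant foreguts female, so that sex and genotype were partly mixed at E10.5, while the tracheas of both genotypes held both sexes.

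By TPM, *Gapdh*, the dehydrogenase at the start of the energy-yielding phase of glycolysis, was the highest of the 38 genes in each of the 4 groups, at 4345 ± 345 TPM (SD, n = 3) in the control tracheas. *Eno1* (enolase, 746 ± 85.6 TPM) and *Ldha* (the muscle-type lactate dehydrogenase subunit, 726 ± 61.5 TPM) came next there, and their ranges overlapped. *Pkm* (pyruvate kinase, 435 ± 14.6 TPM) and *Pgam1* (phosphoglycerate mutase, 429 ± 42.3 TPM) overlapped as well. The genes that regulate flux or sense oxygen were far lower, for example *Hif1a* at 42.0 ± 5.36 TPM, *Pdk1* at 14.9 ± 2.60 TPM and *Egln3* at 4.29 ± 1.01 TPM. *Adm*, encoding the peptide adrenomedullin, was lowest, at 0.457 ± 0.385 TPM. Within families, *Aldoa* (297 TPM) and *Eno1* were far above *Aldoc* (1.83 TPM) and *Eno2* (1.33 TPM) in control tracheas. *Slc2a1* (82.4 TPM) was above *Slc2a3*, *Egln1* (33.8 TPM) above *Egln3*, and *Pfkl* (36.6 TPM) above *Pfkm* (15.9 TPM) and *Pfkp* (2.99 TPM), whereas *Pdk3* (31.6 TPM) was above *Pdk1*. Neighbours in this order had overlapping ranges in 26 of the 37 steps in control tracheas.

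At E10.5, *Pdk1* was the gene of the 38 that rose in the mutant foreguts, and none fell. *Pdk1* encodes a kinase that switches off pyruvate dehydrogenase, and it is a textbook target of Hif1a. It was at 35.6, 33.9 and 29.4 CPM in the control foreguts and at 57.4, 46.5 and 56.4 CPM in the mutants. All 3 mutants lay above all 3 controls. The fold change was 1.62 (log2 0.70, standard error 0.11, adjusted p = 0.0456 by the quasi-likelihood test of edgeR, adjusted by Benjamini-Hochberg across every gene tested). Of the 37 genes that passed the filter on low counts, 1 was thus called higher against 0.314% of the 15295 genes tested, and 0 were called lower against 0.405% (0.719% in either direction). In RNA of whole dissected tissue, fewer cells of a type and less RNA per cell cannot be told apart, here or below. The *Pdk1* call rested on few libraries, since without any of the 3 controls or without mutant replicate 1 the adjusted p was 0.103 to 0.211 (log2 fold change 0.62 to 0.75).

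Below that threshold, 12 of the 37 genes were higher and 2 lower at an unadjusted p under 0.05, where 9.23% and 9.56% of all genes were. In 28 of the 37 the log2 fold change was above 0, against 54.8% of all genes, and the median was 0.15 against 0.03 for all genes. The list was chosen with earlier results of these data known. Its comparisons with all genes, here and below, are therefore not independent of the data. Control and mutant libraries did not overlap in 13 genes with higher mutants (1763 of 15268 genes) and in 3 with lower mutants (13.5% of all genes), which were *Gapdh*, *Ldhb* and *Pdk3*.

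The import and export steps were among the 13. *Slc2a3*, a high-affinity glucose transporter, was at 63.2, 82.5 and 57.8 CPM in controls and 117, 109 and 94.7 CPM in mutants. The lowest mutant was above the highest control, but the log2 value of 0.66 (standard error 0.14) did not pass (adjusted p = 0.0707, edgeR). *Slc16a3*, which exports lactate, was at 15.3, 16.4 and 19.2 CPM in controls and 23.1, 22.2 and 25.1 CPM in mutants. These groups did not overlap either (log2 0.47, standard error 0.11, adjusted p = 0.0971). *Slc2a1*, the widely expressed glucose transporter of embryonic tissues, was at 143, 157 and 143 CPM in controls and 186, 184 and 161 CPM in mutants, again without overlap (log2 fold change 0.26, adjusted p = 0.136).

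Among the genes of oxygen sensing and of the response to low oxygen, none passed at E10.5. *Egln3*, an oxygen-dependent prolyl hydroxylase, was at 2.84, 3.13 and 3.64 CPM in controls and 6.88, 6.01 and 5.05 CPM in mutants. Every mutant was above every control (log2 0.90, standard error 0.21, adjusted p = 0.0860, edgeR). *Bnip3*, a protein of the mitochondrial membrane that marks mitochondria for removal, was at 30.5, 26.5 and 28.8 CPM in controls and 47.5, 36.7 and 49.9 CPM in mutants. These did not overlap (log2 0.65, standard error 0.13, adjusted p = 0.0574). The related *Bnip3l* differed far less, at 124 to 131 CPM in controls and 132 to 147 CPM in mutants (log2 fold change 0.15). *Ddit4*, an inhibitor of mTOR complex signalling, was at 10.7 to 11.4 CPM in controls and 12.5 to 21.6 CPM in mutants, without overlap (log2 fold change 0.70, adjusted p = 0.126). *Hif1a* RNA was at 106 to 125 CPM in controls and 109 to 129.7 CPM in mutants, and the ranges overlapped (log2 fold change 0.04).

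None of the glycolytic enzymes passed at E10.5. In the upper pathway, where glucose is phosphorylated and cleaved, 8 of 9 genes were above 0 on the log2 scale (median 0.18), and 3 (*Gpi1*, *Tpi1* and *Aldoc*) had an unadjusted p under 0.05. *Gpi1* (glucose-6-phosphate isomerase) was at 168, 181 and 187 CPM in controls and 200.03, 199 and 226 CPM in mutants. Every mutant was above every control (log2 0.22, standard error 0.07, adjusted p = 0.164, edgeR). *Tpi1* (triosephosphate isomerase) at 139 to 155 CPM in controls and 157 to 174 CPM in mutants, and *Aldoa* (aldolase) at 291 to 336 CPM and 338 to 339 CPM, did not overlap either. *Pfkl* was at 77.8, 93.0 and 88.6 CPM in controls and 98.4, 90.2 and 96.3 CPM in mutants, which overlapped (log2 fold change 0.14).

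In the lower pathway the median over 6 genes was -0.06 on the log2 scale. *Gapdh* was at 4076, 4195 and 4064 CPM in controls and 3659, 3498 and 3566 CPM in mutants. Every mutant was below every control, by a small margin that did not pass (log2 -0.20, standard error 0.06, adjusted p = 0.123, edgeR), although DESeq2 called *Gapdh* lower (adjusted p = 0.00999). *Ldha* was at 729.8, 732 and 842 CPM in controls and 898, 742 and 834 CPM in mutants, which overlapped. *Eno2*, the neuronal enolase, was scarce, at 0.592 to 0.838 CPM in controls and 1.29 to 1.95 CPM in mutants, with the highest value in mutant replicate 3, the library with the most neuron markers (log2 fold change 1.13, adjusted p = 0.145). The part of those cells in the *Eno2* difference was not tested.

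Cell type markers differed between the genotypes at E10.5 as well. Macrophage markers summed to 13.2 to 15.2 TPM in controls and 16.5 to 28.9 TPM in mutants, without overlap, with 7 of 7 tested above 0 and 4 at an unadjusted p under 0.05. The heart muscle sums given above did not overlap either. Epithelial sums (308 to 389 TPM and 362 to 474 TPM) and endothelial sums (116 to 155 TPM and 146 to 193 TPM) overlapped, with 8 of 8 and 7 of 7 markers above 0, and 1 endothelial marker was called higher. Mesenchymal markers went both ways, with 3 of 8 above 0 and 1 called lower. At an unadjusted p under 0.05, 2 of them were higher and 3 lower. Their sums (390 to 598 TPM and 377 to 523 TPM) overlapped. The part of these marker genes in the values of the 38 genes was not tested.

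At E11.5, 6 of the 38 genes rose in the mutant tracheas and none fell. They were *Pdk1*, *Egln3*, *Pfkl*, *Ldha*, *Slc2a1* and *Ndrg1*, with fold changes from 1.5 to 2.14. Of all 15376 genes tested, 1.81% were called higher and 0.689% lower, 2.50% in all (with libraries scaled by their totals alone, 62.2% of the genes called were higher, in place of 72.5%). At an unadjusted p under 0.05, 20 of the 38 were higher and 0 lower, where 10.8% and 8.32% of all genes were. Control and mutant tracheas did not overlap in 18 of the 38, all with higher mutants, against 9.44% of all genes with higher and 7.44% with lower mutants. The log2 fold change was above 0 in 32 of the 38, against 48.6% of all genes, and the median was 0.36 against -0.01 for all genes. As at E10.5, these comparisons describe a list chosen with earlier results of these data known.

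*Pdk1* had the smallest adjusted p of the 6 genes. It was at 36.8, 51.9 and 41.7 CPM in the control tracheas and at 72.1, 89.8, 75.5 and 83.1 CPM in the mutants. The lowest mutant was well above the highest control. The fold change was 1.84 (log2 0.88, standard error 0.13, adjusted p = 0.00906, edgeR), and the call was lost without control replicate 3 (adjusted p = 0.0681). *Pdk3*, the other kinase of the family among the 38 genes, was at 33.7 to 40.7 CPM in controls and 34.5 to 44.7 CPM in mutants, which overlapped (log2 fold change 0.08). Of the relatives outside the 38, *Pdk2* was at 26.2 to 30.8 CPM in controls and 31.7 to 35.6 CPM in mutants, without overlap (log2 fold change 0.21, adjusted p = 0.355, edgeR).

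*Egln3* had the largest fold change of the 6 genes. It was at 5.99, 8.80 and 5.83 CPM in control and 12.9, 14.1, 16.6 and 15.4 CPM in mutant tracheas. No mutant was near a control (fold change 2.14, log2 1.10, standard error 0.20, adjusted p = 0.0221, edgeR). The call was lost without control replicate 3 (adjusted p = 0.118) and without mutant replicate 3 (adjusted p = 0.0633). Its relative *Egln1*, the main oxygen sensor in most tissues, was at 68.4 to 73.9 CPM in controls and 76.3 to 97.0 CPM in mutants, and *Hif1a* at 102 to 122 CPM in controls and 133 to 147 CPM in mutants. Neither overlapped and neither passed (log2 fold changes 0.29 and 0.31, adjusted p = 0.162 and 0.130).

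Of the glucose transporters, *Slc2a1* rose and *Slc2a3* did not pass. *Slc2a1* was at 116, 151 and 113 CPM in control and 174, 230.0, 186 and 186 CPM in mutant tracheas. The mutants lay above the controls, and mutant replicate 2 was the highest library (fold change 1.53, log2 0.61, standard error 0.14, adjusted p = 0.0437, edgeR). *Slc2a3* was at 34.6, 45.8 and 45.8 CPM in controls and 56.6, 50.4, 68.7 and 83.3 CPM in mutants, without overlap (log2 0.62, standard error 0.18, adjusted p = 0.0955). The *Slc2a1* call was lost without control replicate 3 and without each of the 4 mutants (adjusted p 0.0780 to 0.204).

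In the upper pathway, *Pfkl* rose and 5 other genes had an unadjusted p under 0.05. *Pfkl* encodes the liver-type subunit of phosphofructokinase, the committing step of glycolysis. It was at 83.2, 91.0 and 70.8 CPM in control and 118, 122, 118 and 134 CPM in mutant tracheas. The groups were well apart (fold change 1.5, log2 0.59, standard error 0.11, adjusted p = 0.0255, edgeR), although the call was lost without control replicate 3 and without each of the 4 mutants (adjusted p 0.0512 to 0.125). *Gpi1* was at 155, 191 and 161 CPM in controls and 215, 234, 274 and 243 CPM in mutants, without overlap (log2 0.51, standard error 0.12, adjusted p = 0.0555). *Pfkp*, the platelet-type subunit, was at 6.38, 7.96 and 7.39 CPM in controls and 9.20, 15.7, 12.7 and 11.2 CPM in mutants (log2 fold change 0.75, adjusted p = 0.0913), and *Pfkm*, the muscle-type subunit, had overlapping groups (log2 fold change -0.11). *Hk2*, the inducible hexokinase, was at 45.6, 39.7 and 38.2 CPM in controls and 49.5, 60.4, 53.3 and 74.3 CPM in mutants, without overlap (log2 fold change 0.53, adjusted p = 0.0934). *Hk1* (log2 fold change 0.53) and *Aldoa* (0.56) did not overlap either, whereas *Aldoc* and *Tpi1* did.

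None of the 6 genes of the lower pathway, from *Gapdh* to *Pkm*, was called at E11.5, and their log2 fold changes ran from -0.50 to 0.35. *Gapdh* was at 3402, 3168 and 3224 CPM in control and 3499, 3894, 3895 and 2265 CPM in mutant tracheas, with mutant replicate 4 the lowest library (log2 0.05, standard error 0.19). *Pgk1*, encoding phosphoglycerate kinase on the X chromosome, was at 229, 311 and 242 CPM in controls and 283, 320.0, 404 and 329 CPM in mutants. These overlapped (log2 fold change 0.35, adjusted p = 0.238, edgeR). *Pgam1* was at 404, 519 and 470.0 CPM in controls and 509, 582, 603 and 440.0 CPM in mutants, and *Pkm* at 594, 659 and 636 CPM in controls and 685, 793, 845 and 655 CPM in mutants. Both overlapped.

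At the lactate branch, *Ldha* rose and *Ldhb* did not. *Ldha* was at 681, 742 and 649 CPM in control and 1067, 1261, 1053 and 994 CPM in mutant tracheas. Every mutant exceeded every control by a wide margin (fold change 1.58, log2 0.66, standard error 0.13, adjusted p = 0.0314, edgeR). The call was lost without control replicate 2 or 3 or without mutant replicate 1, 2 or 3 (adjusted p 0.0580 to 0.155). *Ldhb*, the heart-type subunit, was at 127 to 131 CPM in controls and 85.2 to 147 CPM in mutants, which overlapped (log2 fold change -0.11). *Slc16a3* was at 12.5, 18.9 and 17.6 CPM in controls and 24.7, 26.8, 23.0 and 27.9 CPM in mutants, without overlap (log2 0.64, standard error 0.17, adjusted p = 0.0702). *Pfkfb3*, which makes the activator of phosphofructokinase, was at 32.1, 36.5 and 28.7 CPM in controls and 45.2, 51.2, 41.1 and 48.7 CPM in mutants. It did not overlap and did not pass (log2 0.52, standard error 0.13, adjusted p = 0.0573).

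Of the 11 further genes that answer low oxygen, *Ndrg1* rose. *Ndrg1*, a stress-response gene whose product takes part in vesicle traffic and differentiation, was at 4.23, 3.94 and 5.12 CPM in control and 9.59, 7.55, 7.69 and 8.28 CPM in mutant tracheas. The groups were apart (fold change 1.86, log2 0.90, standard error 0.21, adjusted p = 0.0475, edgeR), but the call was lost without any library other than control replicate 1 (adjusted p 0.0736 to 0.192). *Bnip3* was at 25.9, 53.2 and 31.4 CPM in controls and 51.5, 69.7, 51.8 and 48.0 CPM in mutants. Control replicate 2 lay within the mutant range (log2 fold change 0.58, adjusted p = 0.190). *P4ha1*, a collagen prolyl hydroxylase, was at 30.3, 57.2 and 35.0 CPM in controls and 45.5, 51.5, 57.7 and 62.9 CPM in mutants, and again control replicate 2 overlapped (log2 fold change 0.41, adjusted p = 0.296). *Adm* had 2, 10 and 3 counts in controls and 12, 31, 22 and 7 counts in mutants, too few for a firm comparison (adjusted p = 0.141). *Bnip3l*, at 137 to 155 CPM in controls and 161 to 171 CPM in mutants, did not overlap (log2 fold change 0.20, adjusted p = 0.280). *P4ha2*, *Ankrd37*, *Car9*, *Ddit4*, *Mxi1* and *Higd1a* overlapped, with log2 fold changes from -0.06 to 0.71.

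**Figure D1:**
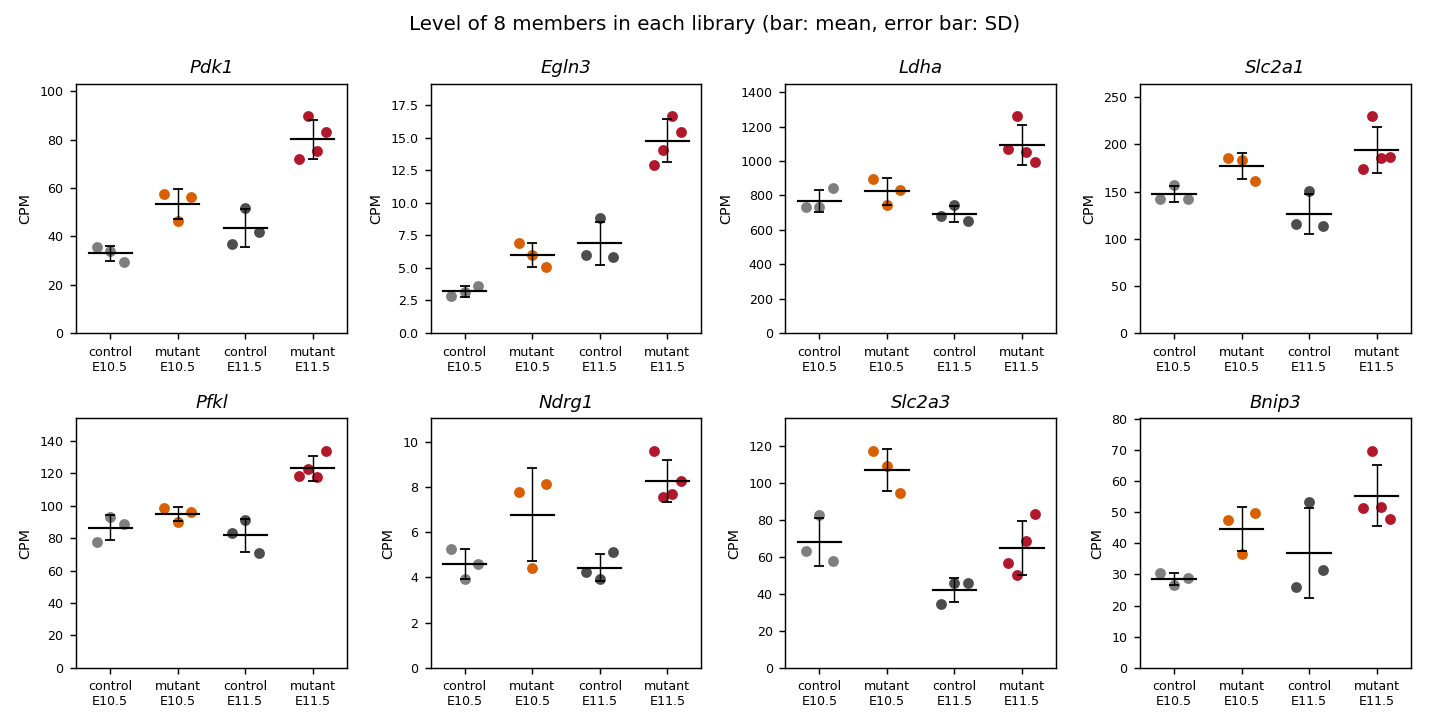
Level of 8 of the genes in each library, in CPM, by stage and genotype. Points are libraries, horizontal bars are means and error bars are SD. In *Pdk1*, *Egln3*, *Ldha*, *Slc2a1*, *Pfkl* and *Ndrg1* all 4 mutant tracheas lie above all 3 control tracheas, while for *Bnip3* control replicate 2 (53.2 CPM) lies among the mutants.

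**Figure D2:**
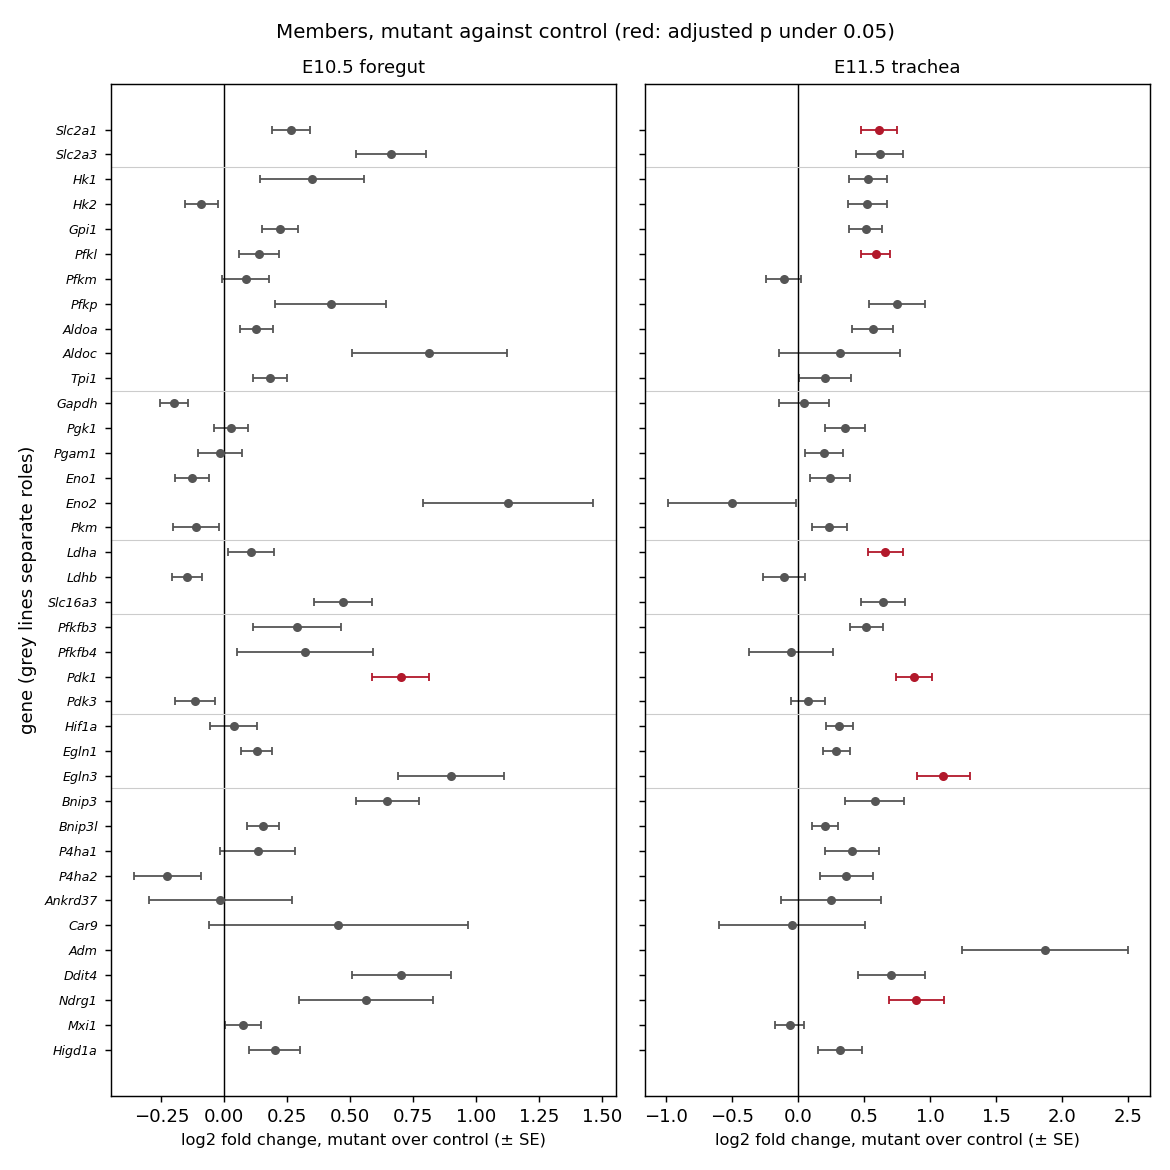
Log2 fold change of mutants over controls (points) with its standard error (bars) for the 38 genes, grouped by role, in E10.5 foreguts and E11.5 tracheas, on separate horizontal scales. Red marks an adjusted p under 0.05, which 1 gene had at E10.5 and 6 genes at E11.5. *Adm* was too low to be tested at E10.5.

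Several cell type markers moved with genotype at E11.5. Epithelial markers summed to 163 to 211 TPM in control and 246 to 427 TPM in mutant tracheas, and 6 of their 8 genes were called higher. The heart muscle sums given above were highest in mutant replicate 2, which also had the highest *Slc2a1*, *Pdk1*, *Ldha* and *Bnip3* (not called) of the mutants. The other called genes were highest elsewhere, *Pfkl* in mutant replicate 4, *Egln3* in mutant replicate 3 and *Ndrg1* in mutant replicate 1. *Ndrg1* was lowest of the mutants in replicate 2. Macrophage markers summed to 34.7 to 46.7 TPM in controls and 47.1 to 76.3 TPM in mutants, red cell markers to 10436 to 60310 TPM and 26355 to 91145 TPM, endothelial markers to 127 to 157 TPM and 159 to 210 TPM, and mesenchymal markers to 734 to 857 TPM and 706 to 866 TPM. No marker was at 0 in all libraries of a group. Without mutant replicate 2 and control replicate 1, the libraries with the most heart muscle markers of their group (a choice made after seeing the data), 6 of the genes were called, namely *Slc2a3*, *Pfkl*, *Ldha*, *Pdk1*, *Egln3* and *Ddit4*. Of 9 tested genes listed for dissection stress, 8 were above 0 at E11.5 (median log2 fold change 0.20), with 1 at an unadjusted p under 0.05. At E10.5, 7 of 7 were above 0 (median 0.30), with 2 at an unadjusted p under 0.05. None was called at either stage. Their sums overlapped at E11.5 (67.1 to 83.4 TPM in controls, 73.6 to 91.3 TPM in mutants). The part of dissection stress and of the epithelial and other markers in the differences was not tested.

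Control replicate 2 was often the highest of the control tracheas. It was the highest of the 3 controls in 27 of the 38, including 7 of the 9 upper glycolytic genes and 7 of the 11 further low-oxygen genes. How often this held over all genes was not counted, so it is not shown to be particular to these genes. *Aldoc* was at 5.63 CPM there against 1.84 and 1.35 CPM, *Bnip3* at 53.2 CPM against 25.9 and 31.4 CPM, and *Tpi1* at 206 CPM against 117 and 145 CPM. Without control replicate 2, 4 of the 38 were called, all of them higher (*Slc2a1*, *Pfkl*, *Pdk1* and *Egln3*). Without control replicate 3, 0 were called by edgeR, with 15 at an unadjusted p under 0.05, and without control replicate 1, 7 were called. Leaving out mutant replicate 1, 2, 3 or 4 gave 2, 2, 1 and 3 calls. With limma on log2 TPM in place of counts, none of the 6 genes was called and *Slc2a3* was.

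**Figure D3:**
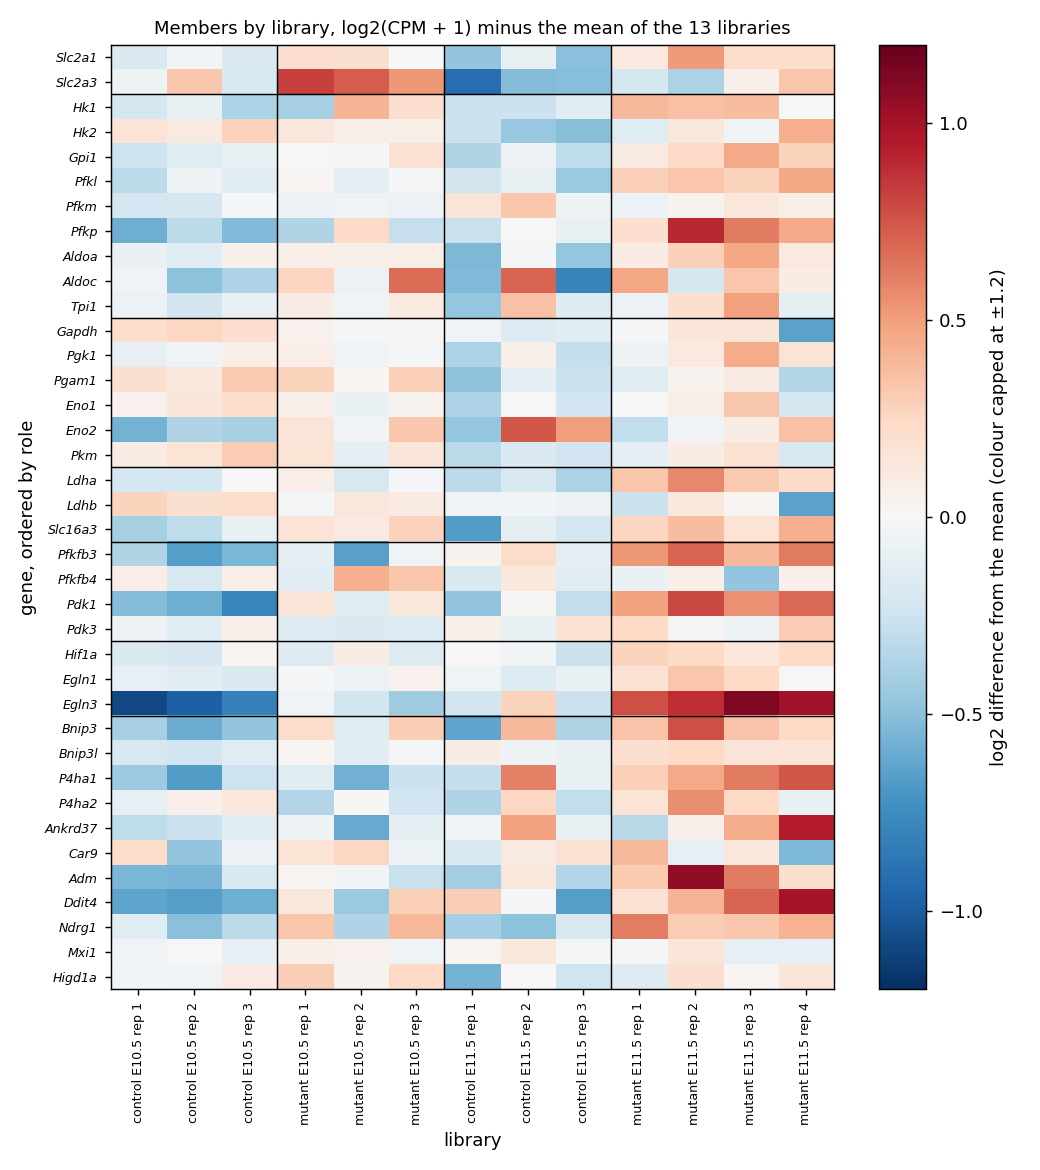
Level of the 38 genes in each of the 13 libraries as log2(CPM + 1) minus the gene's mean over the 13 libraries, with colour capped at 1.2 in either direction. Genes are ordered by role (horizontal lines) and libraries by group (vertical lines). The mutant tracheas are above the mean for most genes, with *Gapdh* and *Ldhb* low in mutant replicate 4. Control trachea replicate 2 stands above the other 2 control tracheas in 27 of the 38 genes.

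The hypoxia response element has the core ACGTG or GCGTG. For the genes that rose, the stretch before a RefSeq start of each (GRCm38.p6) was read, 5′ to 3′ on the gene's own strand. It ran up to 250 bases, without annotated exon sequence beyond the edge of a match. Capitals mark ACGTG or GCGTG on either strand, that is also CACGT and CACGC, and CACGTG holds ACGTG on both strands. *Ndrg1*, *Bnip3l* and *Slc2a3* had no entry. The stretches lie at chr4:119108495-119108713 (plus strand) for *Slc2a1*, chr10:78009808-78010004 (minus strand) for *Pfkl*, chr7:46845554-46845803 (plus strand) for *Ldha*, chr2:71872974-71873223 (plus strand) for *Pdk1* and chr12:54203875-54204124 (minus strand) for *Egln3*.
Slc2a1: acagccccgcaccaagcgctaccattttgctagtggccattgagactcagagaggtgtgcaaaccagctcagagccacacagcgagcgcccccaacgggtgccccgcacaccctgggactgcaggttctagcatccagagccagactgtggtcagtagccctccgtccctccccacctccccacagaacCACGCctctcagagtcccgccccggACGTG
Pfkl: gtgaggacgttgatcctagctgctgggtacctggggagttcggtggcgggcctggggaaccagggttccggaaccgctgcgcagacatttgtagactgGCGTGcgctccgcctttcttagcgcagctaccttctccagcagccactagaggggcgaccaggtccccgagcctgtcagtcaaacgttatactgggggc
Ldha: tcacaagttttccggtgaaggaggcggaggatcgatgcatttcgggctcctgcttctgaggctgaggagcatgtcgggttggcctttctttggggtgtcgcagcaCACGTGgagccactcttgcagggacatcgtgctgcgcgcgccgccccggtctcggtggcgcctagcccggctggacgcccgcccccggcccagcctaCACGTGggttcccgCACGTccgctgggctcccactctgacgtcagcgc
Pdk1: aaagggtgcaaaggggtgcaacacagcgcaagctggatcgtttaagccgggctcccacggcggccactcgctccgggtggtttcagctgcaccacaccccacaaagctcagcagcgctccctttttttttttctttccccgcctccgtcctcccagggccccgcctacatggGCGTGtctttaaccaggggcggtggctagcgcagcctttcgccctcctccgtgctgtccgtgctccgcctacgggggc
Egln3: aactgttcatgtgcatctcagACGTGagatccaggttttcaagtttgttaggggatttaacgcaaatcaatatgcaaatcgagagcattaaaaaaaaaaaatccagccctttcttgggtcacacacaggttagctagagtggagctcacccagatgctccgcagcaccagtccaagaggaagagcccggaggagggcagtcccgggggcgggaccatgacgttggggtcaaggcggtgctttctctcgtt

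*Ldha* has 5 matches in the stretch shown, all of ACGTG, of which 4 come from 2 copies of CACGTG. *Slc2a1* has 1 ACGTG and 1 GCGTG, *Egln3* has 1 ACGTG, and *Pfkl* and *Pdk1* have 1 GCGTG each. Over windows of 300 bases (250 before to 50 after the start), ACGTG was present in 21 of the 35 genes with an entry, or 60.0%, against 19.6% of 27025 genes and 25.2% of 10922 genes tested at E11.5. GCGTG was present in 57.1% of the 35, 32.5% of all and 51.1% of the tested genes, and CACGTG in 11.4%, 7.24% and 10.0%. At least 1 of the cores was in 28 of the 35, or 80.0%, against 43.8% and 62.6%. *Pfkm* and *Hif1a*, which were not called by genotype, hold 3 ACGTG matches each. These matches describe letters in a window and not bound sites. The list was chosen for roles that include the response to low oxygen, and Hif1a is known to bind such elements near many of its genes. Its excess of the cores over all genes is therefore not independent of that choice. Whether the cores have a part in the genotype differences was not tested.

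Genes were also expressed as shares of the summed TPM of themselves and their relatives among the 38, which leaves out relatives outside the 38 such as *Pdk2*, *Pfkfb2* and *Egln2*. *Pdk1* made up 27.5 to 38.7% of *Pdk1* and *Pdk3* in control tracheas and 39.7 to 48.5% in mutants. *Ldha* made up 80.1 to 81.8% of *Ldha* and *Ldhb* in controls and 85.9 to 90.2% in mutants, and *Pfkl* made up 65.4 to 66.7% of the 3 phosphofructokinase genes in controls and 70.9 to 75.3% in mutants. These 3 shares did not overlap between the groups. In an exact permutation test, two-sided, each reached 0.0286, the smallest p that 3 against 4 libraries allow. So did *Pfkfb3* (of *Pfkfb3* and *Pfkfb4*), with a higher share in mutants, and *Egln1* (of *Egln1* and *Egln3*), with a lower share. Over the 22 shares tested, the adjusted p of these permutation tests was 0.126. With all measured relatives in the sum (a choice made after seeing the data), *Pdk1* made up 18.9 to 25.8% of the 4 Pdk genes in control and 28.4 to 33.1% in mutant tracheas, and *Pfkfb3* 47.0 to 53.9% and 57.8 to 65.6% of the 4 Pfkfb genes, still without overlap. *Egln1* then made up 56.3 to 62.0% of the 3 Egln genes in controls and 57.4 to 63.6% in mutants, which overlapped, whereas *Egln3* made up 6.34 to 9.60% and 12.2 to 15.4%, which did not. At E10.5 the smallest p that 3 against 3 allow in this permutation test is 0.1. It was reached by *Pdk1* (27.1 ± 3.29% of *Pdk1* and *Pdk3* in controls, 39.9 ± 3.11% in mutants, SD, n = 3 each) and *Bnip3*, with higher shares in mutants. *Slc2a1*, *Eno1* and *Egln1* reached it with lower shares in mutants.

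**Figure D4:**
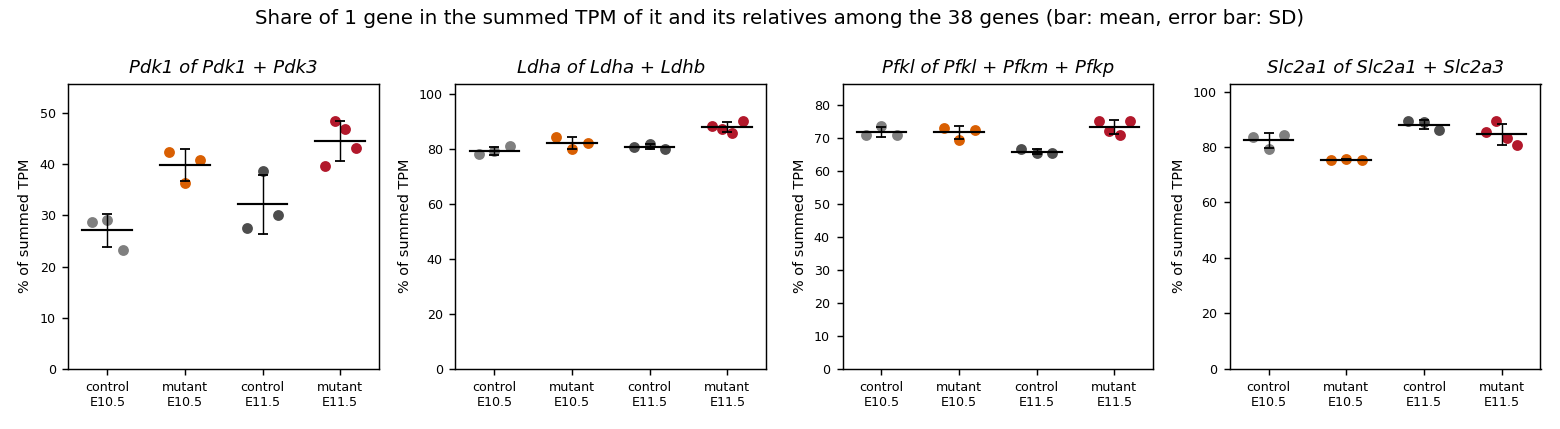
Share of 1 gene in the summed TPM of it and its relatives among the 38 genes, in percent, for *Pdk1*, *Ldha*, *Pfkl* and *Slc2a1*, by stage and genotype. Points are libraries, horizontal bars are means and error bars are SD. The mutant tracheas lie above the control tracheas for *Pdk1*, *Ldha* and *Pfkl*.

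Neighbouring pathways were counted from lists of genes that are not among the 38. Of 23 genes of pyruvate entry, the pyruvate dehydrogenase complex and the citric acid cycle, 0 were called at E10.5 and 0 at E11.5 by edgeR (0 with an unadjusted p under 0.05 at E11.5, and 3, all lower, at E10.5). Their median log2 fold changes were -0.07 and -0.06. Of the 23, 5 were above 0 at E10.5 and 9 at E11.5, against 54.8% and 48.6% of all genes. None of 7 pentose phosphate genes was called at either stage, with 1 at an unadjusted p under 0.05 at E10.5 and 0 at E11.5. None of the other glycolysis genes tested was called (14 tested at E10.5, with 4 at an unadjusted p under 0.05, and 15 at E11.5, with 2). Of all genes, 0.719% were called at E10.5 and 2.50% at E11.5. At an unadjusted p under 0.05, 9.23% were higher and 9.56% lower at E10.5, and 10.8% and 8.32% at E11.5. Of 29 further hypoxia genes, 0 were called at E10.5, with 4 at an unadjusted p under 0.05, all higher. At E11.5, 1 rose, with 11 at an unadjusted p under 0.05, 9 of them higher and 2 lower. Their median log2 fold changes were 0.009 at E10.5 and 0.13 at E11.5, against 0.028 and -0.01 for all genes. The gene that rose was *Cited2*, which restrains Hif1a by competing for its coactivator, at 9.42 to 11.6 CPM in control and 18.9 to 23.7 CPM in mutant tracheas (log2 0.92, SE of 0.16, adjusted p = 0.0180 in edgeR).

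Whether the genotype difference itself changed between the stages was tested in 1 fit of all 13 libraries. No gene of the 38 passed in edgeR, where 4 of 16132 genes (0.0248%) did, and DESeq2 called *Ldha*. At an unadjusted p under 0.05 there were 6 genes with a greater log2 fold change at E11.5 (*Hk2*, *Pfkl*, *Aldoa*, *Pkm*, *Ldha* and *P4ha2*) and 1 with a lesser (*Eno2*), with adjusted p from 0.184 to 0.331, where 6.66% and 7.56% of all genes were past that threshold. The difference was above 0 in 30 of the 38, against 46.4% of all genes. For *Ldha* the difference was 0.56 (standard error 0.16) and for *Pfkl* 0.45 (standard error 0.14). The fold changes of *Pdk1* at the stages, 0.70 and 0.88 on the log2 scale, are therefore not shown to differ. Without control trachea replicate 1, *Hk2* and *Eno2* passed.

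Between stages, 8 of the 38 genes changed in controls, 4 of them higher and 4 lower in the E11.5 trachea than in the E10.5 foregut. Stage, the tissue dissected and depth cannot be told apart in this comparison, in which 11.2% of 16132 genes were called higher and 10.1% lower. In either direction, 21.1% of the 38 were called against 21.3% of all genes. The list as a whole thus changed about as often as all genes did. At an unadjusted p under 0.05, 8 of the 38 were higher and 5 lower (19.0% and 16.6% of all genes), 20 had a log2 fold change above 0 (52.5% of all genes), and the groups did not overlap in 6 with higher and 7 with lower tracheas (21.8% and 19.8% of all genes). Among the markers, 7 of 8 epithelial ones were called lower (308 to 389 TPM in foreguts, 163 to 211 TPM in tracheas), 6 of 8 macrophage ones higher (13.2 to 15.2 TPM and 34.7 to 46.7 TPM) and 5 of 8 mesenchymal ones higher (390 to 598 TPM and 734 to 857 TPM), and their part was not tested. *Egln3* rose, from 3.20 ± 0.405 CPM to 6.87 ± 1.67 CPM (SD, n = 3 each, log2 fold change 1.10, adjusted p = 0.0028, edgeR), and so did *Pfkfb3* (21.5 ± 2.38 to 32.4 ± 3.89 CPM, 0.59, adjusted p = 0.0175), *Pdk1* (0.40, adjusted p = 0.0491) and *Eno2* (1.43, adjusted p = 0.0451). *Hk2* fell, from 62.5 ± 3.51 to 41.1 ± 3.91 CPM (log2 fold change -0.60, adjusted p = 0.00550), and so did *Slc2a3* (57.8 to 82.5 CPM against 34.6 to 45.8 CPM, -0.69, adjusted p = 0.0171), *Pgam1* (-0.49, adjusted p = 0.0175) and *Pkm* (-0.43, adjusted p = 0.0195). The groups did not overlap in any of these but *Eno2*, with the lowest control trachea at 0.718 CPM and the highest control foregut at 0.838 CPM. *Egln3* and *Hk2* were called whichever library was left out. *Pdk1* was not called without any library other than control trachea replicate 1 and mutant trachea replicate 2 (adjusted p 0.0513 to 0.241), nor *Eno2* without any other than control trachea replicate 1 and mutant trachea replicates 1 and 4 (0.0516 to 0.197). *Slc2a3* was lost without control foregut replicate 2 (0.0795) or control trachea replicate 1 (0.0556), *Pgam1* without control foregut replicate 3 (0.0685) or control trachea replicate 1 (0.0507), *Pkm* without control foregut replicate 3 (0.0812), and *Pfkfb3* without control foregut replicate 2 (0.0798) or 3 (0.0569) or control trachea replicate 2 (0.0806).

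In mutants, 9 of the 38 genes were higher and 1 lower in the trachea than in the foregut, where 8.12% and 7.40% of all genes were (with libraries scaled by their totals alone, 36.7% of the genes called were higher, in place of 52.3%). At an unadjusted p under 0.05, 16 were higher and 2 lower (14.9% and 15.8% of all genes), 27 had a log2 fold change above 0 (48.7% of all genes), and the groups did not overlap in 11 with higher and 1 with lower tracheas (14.0% and 14.1% of all genes). Among the markers, 7 of 8 macrophage ones and 4 of 8 mesenchymal ones were called higher, and 4 of 8 neuron ones and 2 of 8 epithelial ones lower, and their part was not tested. *Egln3* rose again, from 5.98 ± 0.918 CPM (SD, n = 3) to 14.8 ± 1.62 CPM (n = 4, log2 fold change 1.3, adjusted p = 6.1e-04, edgeR), as did *Pfkfb3* (26.2 ± 5.87 to 46.5 ± 4.37 CPM, 0.83, adjusted p = 0.00272), *Pdk1* (53.4 ± 6.03 to 80.1 ± 7.90 CPM, 0.58, adjusted p = 0.00807) and *P4ha1* (29.7 ± 4.58 to 54.4 ± 7.52 CPM, 0.87, adjusted p = 0.0105). *Pfkl* (log2 fold change 0.37), *Ldha* (0.41), *Pfkp* (0.75), *Hif1a* (0.30) and *Bnip3l* (0.23) rose with adjusted p from 0.0184 to 0.0467. *Slc2a3* fell, with 94.7 to 117 CPM in foreguts and 50.4 to 83.3 CPM in tracheas (-0.73, adjusted p = 0.0112). The groups did not overlap in these genes except *Pfkp*. The calls of *Egln3*, *Pfkfb3*, *Pdk1*, *P4ha1* and *Slc2a3* stayed whichever library was left out. *Pfkl* was lost without mutant foregut replicate 2 (0.0742), *Ldha* without mutant foregut replicate 2 (0.0963) or 3 (0.0603) or mutant trachea replicate 2 (0.0566), and *Pfkp* without mutant foregut replicate 1 (0.117) or 3 (0.0993) or mutant trachea replicate 2 (0.0765) or 3 (0.0509). *Hif1a* was lost in 8 of the 13 cases (0.0554 to 0.172) and *Bnip3l* in every case but that without control trachea replicate 1 (0.0501 to 0.187).

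Some of these values can hold reads of other genes. The library kit does not mark strand, so exons that overlap a gene on the other strand are shared, as for *Slc2a1* (Gm12868), *Hk1* (Hk1os), *Pfkp* (Pitrm1), *Gapdh* (Iffo1), *Bnip3* (Gm45507) and *Ndrg1* (Gm17035 and Gm2895) in GENCODE M21. *Pdk1*, *Egln3*, *Pfkl* and *Ldha* overlap the exons of no other gene there. *Gapdh*, *Eno1*, *Ldha*, *Pgk1*, *Pkm* and *Aldoa* have near-identical processed copies in the mouse genome, and how reads were split among them is uncertain. The *Eno1* copy listed as *Eno1b* had 12 to 114 counts per library.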

How the data were processed

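RNA of each dissected tissue was amplified with a kit that does not keep strand and sequenced as single 75-nt reads. According to the study's methods, the authors trimmed the reads, aligned them with Bowtie2 to mm10 and quantified genes with RSEM 1.3.0, with an annotation not given in the sources used here. Both estimated counts, already whole numbers, and TPM values were deposited by the authors for each library. RSEM shares reads among similar transcripts, so values of genes with copies depend on that model.

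Estimated counts were filtered with filterByExpr, scaled by TMM and tested with edgeR 4.0.16 (R 4.3.3) by its quasi-likelihood test, and p-values were adjusted by Benjamini-Hochberg across every gene tested, at a threshold of 0.05. Genotype was tested within each stage on that stage's libraries. The stage comparisons and the interaction used all 13 libraries in 1 fit, so they share libraries with the genotype comparisons. CPM values use the TMM scaling. Shares among related genes came from the deposited TPM and were compared by exact permutation tests. limma 3.58.1, DESeq2 1.42.0, other scalings and filters, and leaving out each library in turn were alternatives. The code was tested on simulated data, where it called 57.47% of log2 changes of 1 at E10.5 and 53.85% at E11.5. Of the genes it called there, 8 of 153 at E10.5 and 14 of 164 at E11.5 had not been changed. Smaller changes were not simulated, and a gene not called is not shown to be unchanged. Replicate numbers were not used to pair the libraries in the main tests. The p-values of edgeR set a difference against the spread between dissections, estimated for each gene with help from the other genes. In the stage and interaction tests that spread came from all 13 libraries. Counting error is smallest for the most abundant genes. No column of values was left unused (0 columns).

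The 38 genes and the other lists were chosen with earlier results of these data known. The rule was to give values in every library for genes called and for the gene with the smallest p of each role in each genotype comparison, families by TPM, and other genes by ranges and counts. Genes called between stages are given there by group means or ranges. Sex was read from *Xist*, with over 100 CPM taken as female. Gene positions and exon overlaps came from GENCODE M21 (GRCm38).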

Additional observations from a re-analysis of the deposited data

Results flagged for a closer look

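Of the 38 genes in the 4 mutant tracheas, *Hk1* had 1 library far from the others. Mutant replicate 4 was at 20.4 CPM against 26.2 to 26.8 CPM in the other mutants, a gap that takes up most of the range of the group. Chance alone flags about 1 in 20 such groups, and 38 were examined. Mutant replicate 4 is also the library with the lowest total and the lowest *Gapdh*.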

How the results depend on the processing

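No gene called in a comparison changed direction under any alternative. For the genotype difference at E10.5 (1 gene called), 0 were called with libraries scaled by their totals alone, with limma-voom and with log2 TPM at a pseudocount of 1 or 0.1, 2 with no filter on low counts and 7 with DESeq2 (6 higher, and *Gapdh* lower), and leaving out 1 library gave 0 to 2. At E11.5 (6 called), 3 were called with totals alone, 10 with no filter, 14 with DESeq2, 1 with log2 TPM at either pseudocount, 10 with all 13 libraries in 1 fit and 2 without both mutant replicate 2 and control replicate 2 (a choice made after seeing the data), and leaving out 1 library gave 0 to 7. Adding sex as a term left 5 called, without *Ndrg1* (adjusted p = 0.0647). For the stage difference in controls (8 called), log2 TPM gave 5 at either pseudocount and leaving out 1 library 3 to 9. In mutants (10 called), totals alone gave 6, log2 TPM 4 at either pseudocount, and leaving out 1 library 6 to 10. For the interaction (0 called), DESeq2 called 1 and leaving out 1 library gave 0 to 2. The cause of these differences was not tested. The median log2 fold change of the genes ranged from 0.13 to 0.19 at E10.5 and from 0.29 to 0.52 at E11.5 when 1 library was left out.

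At E10.5, deviations from the group mean were weakly correlated between same-numbered control and mutant libraries (0.0762 to 0.165). Each of these lay above the correlations of differently numbered ones (-0.142 to 0.0569). At E11.5 the same-numbered ones ran from -0.0887 to 0.101, within the range of the others (-0.189 to 0.216). Whether the numbers pair the foreguts is thus not settled. With the number as a replicate block, 0 genes were called at E10.5 (*Pdk1* at adjusted p = 0.0560, edgeR) and 1 (*Pdk1*) at E11.5. Depth limits *Adm*, *Car9*, *Eno2*, *Pfkfb4* and *Aldoc*, which had few counts.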
